A study of Mus musculus with 9 samples.

Results

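Medium spiny neurons are the principal neurons of the striatum, and 9 genes that mark them or carry out their dopamine signalling were followed through cortex RNA of single mice: Drd1, Drd2, Adora2a, Gpr6, Penk, Tac1, Ppp1r1b, Rgs9 and Pde10a. They were picked by gene name, and are 9 of the 54532 genes in the deposited table. Brain cortex mRNA was sequenced from adult male mice aged 8 to 12 weeks, 3 each of B6 (C57BL6/J), C3H (C3H/HeJ) and WSB (WSB/EiJ). No mouse carried a treatment or an engineered allele. B6 and C3H are classical laboratory strains while WSB derives from wild mice, and the strains were compared because they differ in the volume of brain lost after an artery is blocked. The level of each gene is given as FPKM, that is fragments per kilobase of gene, scaled by the authors for the depth of each library, and 16317439 to 21562429 reads per mouse lay on genes. The dissected tissue was labelled brain cortex, and Slc17a7, the vesicular glutamate transporter of cortical excitatory neurons, averaged 292 FPKM over the 9 mice. The labels name 9 separate animals, and every p-value below measures the spread between these animals alone.

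Medium spiny neurons are inhibitory neurons that receive dopamine from the midbrain and glutamate from the cortex. Those of the direct pathway carry the dopamine receptor D1 and release substance P, made from Tac1, while those of the indirect pathway carry the dopamine receptor D2, the A2a adenosine receptor and the orphan receptor Gpr6 and release enkephalin, made from Penk. D1 raises cyclic AMP and D2 lowers it. The protein DARPP-32 (Ppp1r1b) is a target of the cyclic AMP-dependent kinase and, once phosphorylated, inhibits protein phosphatase 1, whereas Pde10a breaks cyclic nucleotides down and Rgs9 speeds the switching off of G proteins. Several of these genes are also active at lower levels in cortical neurons. In bulk tissue, fewer cells of a type and less RNA per cell cannot be told apart.

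The windows before the start of 6 of the 9 genes were held in the RefSeq promoter table of GRCm38.p6, namely those of Drd1, Drd2, Gpr6, Tac1, Rgs9 and Pde10a. Those of the dopamine receptors and of Gpr6 and Tac1 are shown, because cyclic AMP is the messenger that the receptors of these neurons act on and the latter 2 windows hold a match to a cyclic AMP response element. Each is written 5′ to 3′ on the strand of the gene, and is printed only as far as the base before the gene's annotated span in GENCODE. Capitals mark TGACGTCA (the full element), TGCGTCA (a like form) and GGGCGG (the GC box), each searched on both strands over the 250 bases before the RefSeq start together with TATAAA. The RefSeq start lies inside the GENCODE span for 3 genes, so 182 of the searched bases of Tac1, 47 of Drd1 and all 250 of Pde10a fall within the annotated gene. None of these words is a part of another.
Drd1, chr13:54055706-54055908, minus strand: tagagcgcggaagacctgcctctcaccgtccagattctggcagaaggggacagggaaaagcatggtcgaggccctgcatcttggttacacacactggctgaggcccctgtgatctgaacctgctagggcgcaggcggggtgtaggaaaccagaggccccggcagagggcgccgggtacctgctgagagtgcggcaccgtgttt
Drd2, chr9:49340153-49340402, plus strand: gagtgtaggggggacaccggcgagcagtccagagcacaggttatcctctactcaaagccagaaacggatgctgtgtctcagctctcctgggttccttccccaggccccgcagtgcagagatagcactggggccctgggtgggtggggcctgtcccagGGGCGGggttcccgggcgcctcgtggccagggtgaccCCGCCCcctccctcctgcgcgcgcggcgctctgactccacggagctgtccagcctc
Gpr6, chr10:41072291-41072540, minus strand: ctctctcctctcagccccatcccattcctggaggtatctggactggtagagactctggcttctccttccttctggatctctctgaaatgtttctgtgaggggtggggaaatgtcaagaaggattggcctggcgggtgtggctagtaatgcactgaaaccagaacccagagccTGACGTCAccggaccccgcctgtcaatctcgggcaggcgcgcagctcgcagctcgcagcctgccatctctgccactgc
Tac1, chr6:7554811-7554878, plus strand: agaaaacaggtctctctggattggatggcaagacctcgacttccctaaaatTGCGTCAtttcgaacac

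Gpr6 was the only one of the 6 with TGACGTCA, from base -78 to -71 counted from its RefSeq start, and this word was present in 1.55% of all 32851 promoter windows. TGCGTCA was found in Tac1 only, from base -199 to -193 counted from its RefSeq start and outside the annotated gene, against 1.75% of all windows. GGGCGG was found in Drd2, Pde10a, Rgs9 and Tac1, against 32.7% of all windows, and those of Tac1 and Pde10a lie inside the annotated gene. TATAAA was found in Rgs9 only, against 12.4% of all windows. The Drd1 window held none of the 4 words. These matches describe letters in the reference and were not tied to any binding.

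The 4 receptors had low to moderate levels that differed several-fold between mice of 1 strain. Drd1 (ENSMUSG00000021478, chromosome 13, 54051183 to 54055705 of GRCm38) encodes the D1 receptor. Its level was 22.0, 11.8 and 5.26 FPKM in B6 replicates 1, 2 and 3, 7.60, 3.88 and 9.30 FPKM in C3H replicates 1, 2 and 3, and 4.36, 8.48 and 9.45 FPKM in WSB replicates 1, 2 and 3. The B6 mice held both the highest values and one of the low ones, so the strains overlapped. Drd2 (ENSMUSG00000032259, chromosome 9, 49340627 to 49408177) encodes the D2 receptor and spread the widest of the 9 genes, with 29.7, 14.6 and 4.26 FPKM in B6, 13.0, 4.21 and 20.5 FPKM in C3H and 2.20, 12.7 and 15.9 FPKM in WSB, in the same order of replicates. The highest mouse, B6 replicate 1, had 13.5 times the Drd2 level of the lowest, WSB replicate 1.

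Adora2a (ENSMUSG00000020178, chromosome 10, 75316877 to 75334784) encodes the A2a receptor, a partner of D2. It was at 36.0, 19.7 and 8.24 FPKM in B6, 18.3, 7.57 and 24.5 FPKM in C3H and 3.85, 12.6 and 23.99 FPKM in WSB. Gpr6 (ENSMUSG00000046922, chromosome 10, 41069977 to 41072285) was the lowest of the 9 genes, with 13.0, 7.35 and 2.89 FPKM in B6, 4.45, 3.84 and 6.32 FPKM in C3H and 1.85, 4.79 and 7.45 FPKM in WSB. For both genes the highest value was again that of B6 replicate 1 and the lowest that of WSB replicate 1. Gpr6 rested on the fewest reads, 55 to 417 per mouse, and Drd2 on 93 to 1354.

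Penk, the enkephalin precursor, was the most abundant of the 9 genes. Penk (ENSMUSG00000045573, chromosome 4, 4133531 to 4138819) was at 316, 173 and 78.2 FPKM in B6, 139, 68.3 and 185 FPKM in C3H and 54.8, 115 and 130.3 FPKM in WSB. Tac1 (ENSMUSG00000061762, chromosome 6, 7554879 to 7565834), the precursor of substance P, was at 26.0, 13.3 and 7.22 FPKM in B6, 15.9, 5.30 and 16.6 FPKM in C3H and 5.79, 13.5 and 12.5 FPKM in WSB. Tac1 had the narrowest spread of the 9 genes over the 9 mice, 4.91-fold from C3H replicate 2 to B6 replicate 1, and was the only one in which WSB replicate 2 exceeded WSB replicate 3.

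Among the signalling genes, Ppp1r1b (ENSMUSG00000061718, chromosome 11, 98348404 to 98357796) came next to Penk in level. It was at 211, 118 and 55.0 FPKM in B6, 101, 55.7 and 152 FPKM in C3H and 38.4, 73.7 and 95.5 FPKM in WSB. Rgs9 (ENSMUSG00000020599, chromosome 11, 109225355 to 109298129) was at 24.6, 13.1 and 4.91 FPKM in B6, 12.4, 3.41 and 15.8 FPKM in C3H and 2.91, 9.18 and 12.9 FPKM in WSB. Pde10a (ENSMUSG00000023868, chromosome 17, 8525372 to 8986648) was at 24.8, 11.6 and 5.54 FPKM in B6, 5.90, 4.96 and 7.60 FPKM in C3H and 4.18, 6.22 and 8.71 FPKM in WSB. Pde10a was the gene with the least spread within C3H, 1.53-fold, while Rgs9 spread 4.64-fold in the same mice. Genes on the opposite strand overlap Ppp1r1b, Penk and Pde10a, but none of them had more than 45 reads in a mouse, against at least 894 for the 3 genes.

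**Figure D1:**
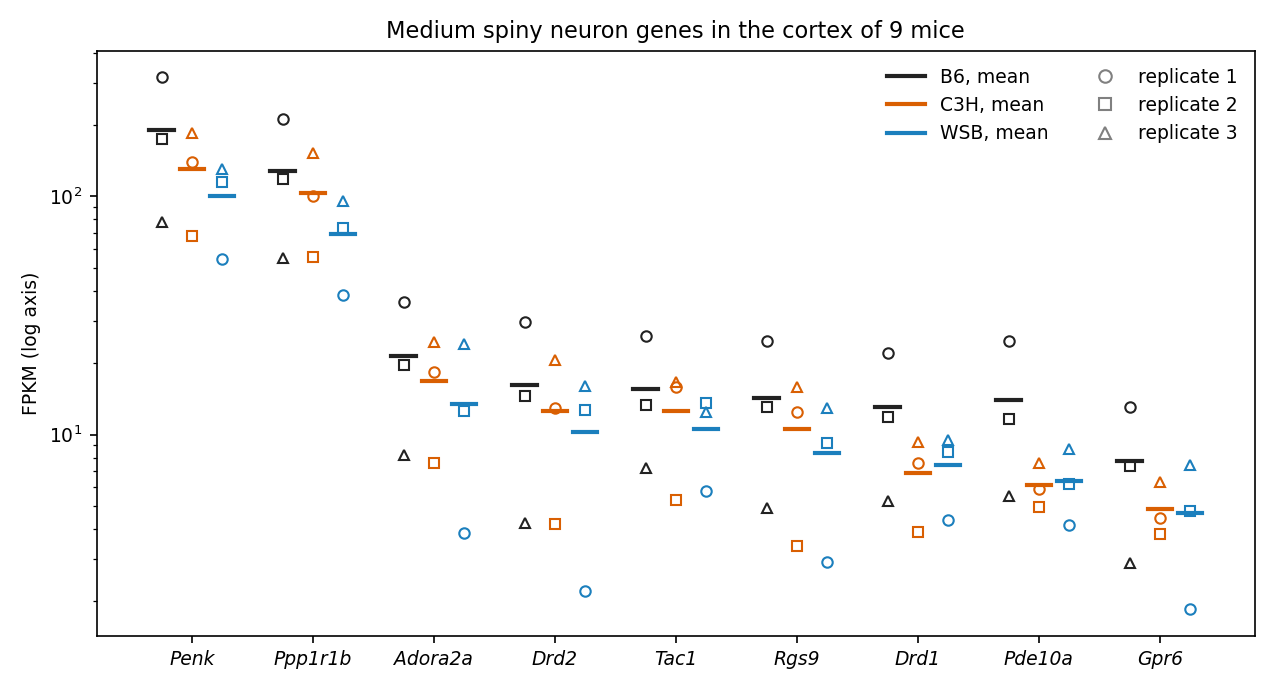
FPKM (log axis) of the 9 medium spiny neuron genes in each of 9 mice, ordered by mean level. Bars are strain means, and circles, squares and triangles are replicates 1, 2 and 3; B6 replicate 1 (black circle) is the highest mouse for every gene and the strains overlap for every gene.

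Set side by side per kilobase, the levels kept much of their order from mouse to mouse. Penk exceeded Ppp1r1b, and Ppp1r1b exceeded Adora2a, in 9 of 9 mice, and Pde10a exceeded Gpr6 in 9 of 9. Adora2a exceeded Drd2, and Tac1 exceeded Rgs9, in 8 of 9 mice. The neighbours Drd2 and Tac1 were not separated, since Drd2 was the higher in 4 of 9 mice, and the same held for Rgs9 over Drd1 and Drd1 over Pde10a, each in 6 of 9.

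The 9 genes ranked the mice in nearly one order. Within B6, replicate 1 was the highest and replicate 3 the lowest in 9 of 9 genes, an order also shown by 19.6% of the 13010 genes that averaged 1 FPKM or more. Within C3H, replicate 3 came first and replicate 2 last in 9 of 9 genes, against 20.5% of all genes, and within WSB, replicate 3 came first and replicate 1 last in 8 of 9 genes, against 15.04%. All 3 orders together held for 8 of the 9 genes, with Tac1 as the exception, for 16 of 24 other striatal genes and for 0.899% of all genes. The 3 lowest of the 9 mice were B6 replicate 3, C3H replicate 2 and WSB replicate 1 for 9 of 9 genes, for 19 of 24 other striatal genes and for 0.953% of all genes. Since these orders were read off the 9 genes themselves, the shares of all genes stand beside them as a description.

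Across the 9 mice the highest and lowest values differed 4.91-fold (Tac1) to 13.5-fold (Drd2). On the scale of FPKM + 0.1, 2.40% to 4.66% of the 13010 genes spread as widely as any one of the 9, and the median of all genes was 1.51-fold. Deviations from the strain mean on the log2(FPKM + 0.1) scale show how far each mouse carried the set: Drd2 ranged from -1.76 in WSB replicate 1 to 1.26 in B6 replicate 1, and Penk from -1.05 in B6 replicate 3 to 0.96 in B6 replicate 1. Pde10a and Gpr6 deviated little in C3H, from -0.28 to 0.32 and from -0.30 to 0.40, where Rgs9 went from -1.34 to 0.84.

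**Figure D2:**
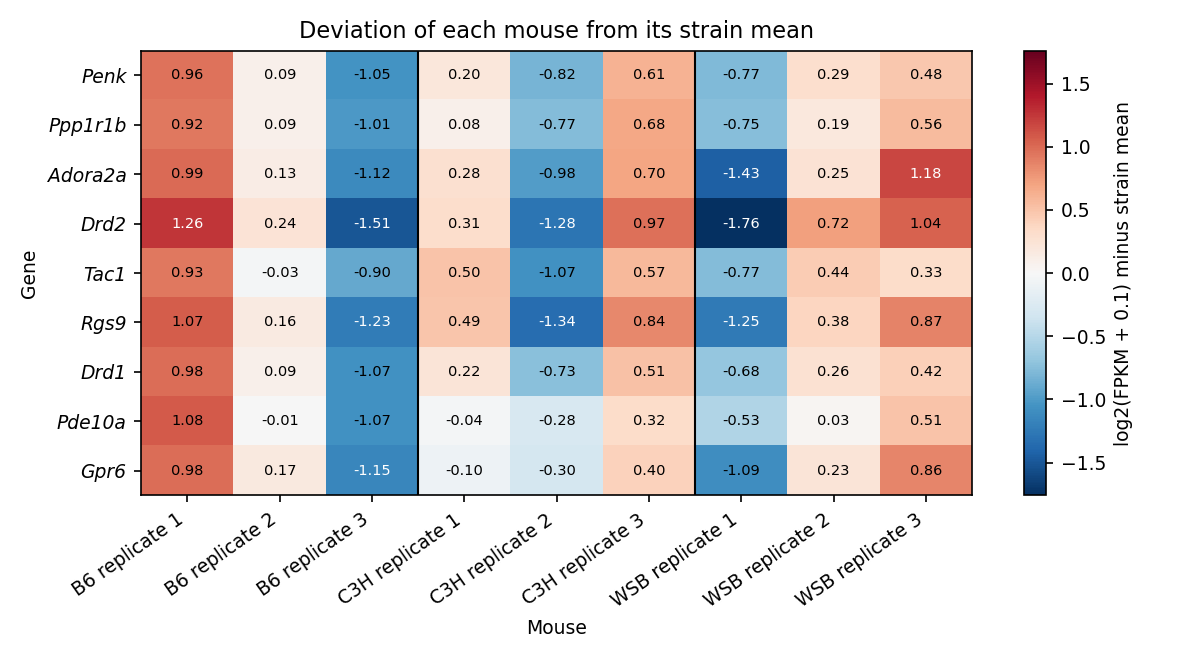
Deviation of each mouse from the mean of its strain, as log2(FPKM + 0.1), for the 9 genes (rows) in 9 mice (columns); red is above and blue below the strain mean. B6 replicate 3, C3H replicate 2 and WSB replicate 1 are below their strain mean for every gene.

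The relation of 3 pairs of genes was tested across the 9 mice, each on log2(FPKM + 0.1) with an exact two-sided permutation test over all 362880 pairings and Benjamini-Hochberg adjustment over the 3. The 9 genes were chosen with earlier results of these data known, and every pair of them was closely related. A low p-value was therefore likely for any pair, and the 3 tests are no independent evidence. Drd1 and Drd2, markers of the direct and the indirect pathway, rose and fell together (Pearson's r = 0.902, exact permutation p = 0.000747, adjusted p = 0.00112). Spearman's rho was 0.90 (exact permutation p = 0.00203, adjusted p = 0.00304). Within strains, r of the deviations from strain means was 0.963 (exact permutation p = 0.00463, the smallest that the 216 pairings within strains allow, adjusted p = 0.00694). Without B6 replicate 1 and C3H replicate 2, the mice farthest from the median of Drd1, r was 0.927 (exact permutation p = 0.00734).

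The peptide precursors of the pathways, Tac1 and Penk, moved together as closely, with r = 0.957 (exact permutation p = 0.000207, adjusted p = 0.00062) and rho = 0.90 (exact permutation p = 0.00203, adjusted p = 0.00304). Their r was 0.972 within strains (exact permutation p = 0.00926, adjusted p = 0.00926) and 0.933 without C3H replicate 2 and WSB replicate 1 (exact permutation p = 0.0105). Ppp1r1b and Pde10a, the pair of signalling genes, had r = 0.861 (exact permutation p = 0.00132, adjusted p = 0.00132), rho = 0.867 (exact permutation p = 0.00451, adjusted p = 0.00451) and r = 0.936 within strains (exact permutation p = 0.00463, adjusted p = 0.00694). Without B6 replicate 1 and WSB replicate 1 the last relation fell to r = 0.704 (exact permutation p = 0.0804), so over the 7 mice left the pooled relation no longer passed 0.05, and the call rested on those mice. Over all 36 pairs of the 9 genes, r within strains ran from 0.831 (Tac1 and Gpr6) to 0.997 (Drd1 and Penk) with a median of 0.950, which is given as a description since all pairs share the same 9 libraries. Of the 9 genes, Penk was the most like the mean profile of the other 8 (r = 0.994 within strains) and Pde10a the least (r = 0.920).

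Between strains the 9 genes showed no difference that exceeded the spread between mice. In WSB versus B6, 0 of the 9 genes passed an adjusted p of 0.05 in limma while 5.90% of the 20746 genes tested passed. An unadjusted p under 0.05 was reached by 0 of the 9, against 20.4% of all genes. The 3 WSB values overlapped the 3 B6 values for every one of the 9 genes, whereas 26.0% of the genes tested did not overlap. The fitted values were below B6 for 9 of 9 genes, with a median log2 fold change of -0.72 against 0.00 for all genes tested. The genes moved together between mice, so these 9 signs are not 9 separate observations.

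Penk averaged 189 ± 119 FPKM in B6, 130.5 ± 58.5 in C3H and 99.8 ± 39.8 in WSB (SD, n = 3 each). Its log2 fold change in WSB versus B6 was -0.80 (SE 0.52, 95% interval -2.01 to 0.42, limma adjusted p = 0.462). Drd2 averaged 16.2 ± 12.8 FPKM in B6, 12.6 ± 8.15 in C3H and 10.3 ± 7.18 in WSB (SD, n = 3 each). Its interval was the widest of the 9, from -2.75 to 1.41 around a log2 fold change of -0.67 (SE 0.89, limma adjusted p = 0.736). Drd1 averaged 13.0 ± 8.46 FPKM in B6, 6.93 ± 2.77 in C3H and 7.43 ± 2.70 in WSB (SD, n = 3 each), and its log2 fold change in WSB versus B6 was -0.65 (SE 0.51, 95% interval -1.85 to 0.54, limma adjusted p = 0.547). The value farthest from 0 in this comparison belonged to Pde10a, -0.93 (SE 0.51, 95% interval -2.13 to 0.27, limma adjusted p = 0.371), and that nearest to 0 to Tac1, -0.45. With voom weights on the recovered reads 0 genes of the 9 passed, and 1, Pde10a, had an unadjusted p under 0.05, against 21.3% of all genes.

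In C3H versus B6, 0 of the 9 genes passed in limma, against 4.64% of the 20602 genes tested, and 0 had an unadjusted p under 0.05, against 24.1%. No gene of the 9 was free of overlap, against 28.9% of those tested. The 9 fitted values again lay below B6, with a median log2 fold change of -0.41 against 0.00 for all genes. Pde10a, with 14.0 ± 9.84 FPKM in B6 and 6.15 ± 1.34 in C3H (SD, n = 3 each), had the value farthest from 0 (-0.94, SE 0.48, 95% interval -2.05 to 0.17, limma adjusted p = 0.268). Ppp1r1b had the nearest, -0.23, with an interval from -1.43 to 0.98. With voom weights 0 passed, and 1, Pde10a, had an unadjusted p under 0.05, against 25.9% of all genes.

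In WSB versus C3H, 0 of the 9 genes passed in limma and 0 were free of overlap, against 5.74% of the 20607 genes tested that passed and 28.6% that did not overlap. An unadjusted p under 0.05 was reached by 0 of the 9 with limma, against 23.8% of all genes, and by 0 with voom weights, against 26.0%. The fitted value was negative for 7 of the 9 genes, with a median log2 fold change of -0.31 against 0.01 for all genes. Ppp1r1b was at -0.55 (95% interval -1.55 to 0.45), while Drd1 was at 0.11 (95% interval -0.78 to 1.01) and Pde10a at 0.01 (95% interval -0.62 to 0.64). Comparisons that share a strain share its 3 mice.

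The width of these intervals comes from the spread between mice of 1 strain. Over the 3 comparisons the residual SD of the 9 genes lay between 0.43 (Pde10a, WSB versus C3H) and 1.47 (Drd2, WSB versus B6) on the log2 scale, at the 93.4th to the 99.2nd percentile of genes averaging 1 FPKM or more, whose median SD was 0.14 to 0.15. A level 2-fold below that of B6 lay inside the 95% interval of 9 of 9 genes in WSB versus B6 and in C3H versus B6. Without B6 replicate 3, the lowest B6 mouse for every gene, the log2 fold change in WSB versus B6 went to -1.32 for Penk, -1.29 for Ppp1r1b, -1.19 for Drd1 and -1.46 for Pde10a, with limma adjusted p of 0.129 to 0.195, and these 4 then had an unadjusted p under 0.05, against 17.7% of all genes. In C3H versus B6 without the same mouse it was reached by 3 of the 9, Drd1, Pde10a and Gpr6, against 21.9% of all genes, with limma adjusted p of 0.0842 to 0.157.

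**Figure D3:**
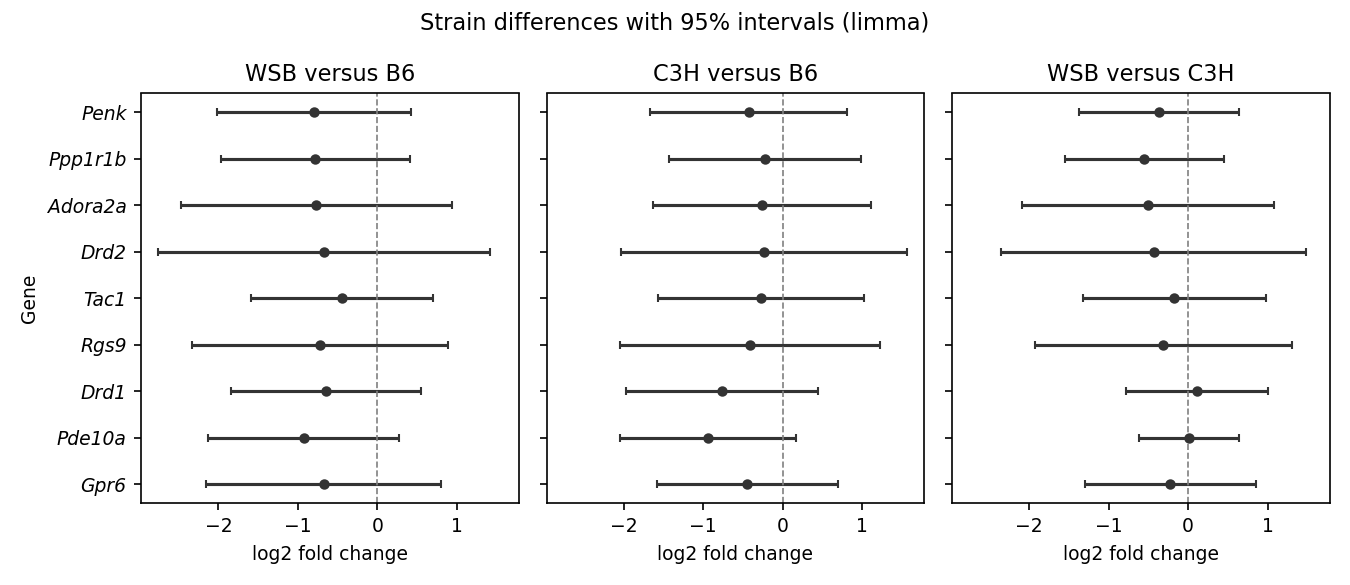
Log2 fold change of log2(FPKM + 0.1) with its 95% interval from limma for the 9 genes (rows) in the 3 comparisons of strains (panels); 3 mice stand on each side. Every interval includes 0, and that of Drd2 is the widest.

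Because the 9 genes shared their spread with other striatal genes, a fit chosen after the values were seen held the mean log2(FPKM + 0.1) of the 24 other striatal genes as a covariate, so that mice were compared at an equal level of those genes. The covariate itself went from 2.36 in WSB replicate 1 to 4.18 in B6 replicate 1. The SE of Drd1 in C3H versus B6 then fell from 0.52 to 0.09, around a log2 fold change of -0.39 (limma adjusted p = 0.0927). With 2 strains in a fit, 0 of the 9 genes passed in each comparison, against 4.14% (WSB versus B6), 3.30% (C3H versus B6) and 5.74% (WSB versus C3H) of all genes tested. An unadjusted p under 0.05 was reached by Ppp1r1b and Pde10a in WSB versus B6, by Drd1, Drd2 and Pde10a in C3H versus B6 and by Ppp1r1b and Drd1 in WSB versus C3H. These are 2, 3 and 2 of the 9, against 17.8%, 21.2% and 24.5% of all genes.

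With all 3 strains in that fit, Drd1 was lower in C3H than in B6 (log2 fold change -0.40, SE 0.10, limma adjusted p = 0.0489), the only one of the 9 to pass there, against 5.45% of all genes. Ppp1r1b was lower in WSB than in C3H (-0.32, SE 0.07, limma adjusted p = 0.0319), again alone, against 6.91% of all genes. In WSB versus B6 0 of the 9 passed, against 5.62% of all genes, and 1, Ppp1r1b, had an unadjusted p under 0.05, against 19.2%. Neither Drd1 nor Ppp1r1b passed once a trend with GC content had been removed from each library. Over all genes, 1283 of 20602 then passed in C3H versus B6 and 1817 of 20607 in WSB versus C3H. Drd1 was then at -0.31 (SE 0.09, limma adjusted p = 0.0955) and Ppp1r1b at -0.19 (SE 0.08, limma adjusted p = 0.180). The longest transcript of Drd1 holds 46.0% GC and that of Ppp1r1b 61.0%, and the part of GC content in these values was not tested.

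Set against Drd1 in the same mouse, some of the other genes kept a nearly fixed ratio within a strain. These ratios were chosen after the values were seen and are a description. The FPKM of Penk was 14.3, 14.6 and 14.9 times that of Drd1 in B6 replicates 1, 2 and 3, 18.2, 17.6 and 19.8 times in C3H, and 12.6, 13.5 and 13.8 times in WSB. Within B6 the ratio thus stayed within 14.3 to 14.9 while Drd1 itself varied 4.19-fold, and no pair of strains overlapped. With the GC trend removed the ratio was 13.1 to 14.0 in WSB, 14.7 to 15.8 in B6 and 16.0 to 17.7 in C3H, still without overlap. Ppp1r1b was 8.69 to 10.1 times Drd1 in WSB, 9.56 to 10.5 times in B6 and 13.2 to 16.4 times in C3H, and its C3H and B6 ranges overlapped once the GC trend was removed.

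Drd2 was 1.35, 1.23 and 0.808 times Drd1 in B6 replicates 1, 2 and 3, 1.71, 1.09 and 2.20 times in C3H and 0.504, 1.49 and 1.69 times in WSB. In each strain the ratio of Drd2 to Drd1 was lowest in the mouse with the least of the 9 genes. Adora2a per Drd1 was narrow in B6, at 1.57 to 1.66, but ran from 1.95 to 2.63 in C3H and from 0.883 to 2.54 in WSB. Gpr6 per Drd1 was likewise 0.549 to 0.621 in B6, and 0.586 to 0.990 in C3H and 0.425 to 0.789 in WSB. Of the 8 ratios to Drd1, 2 did not overlap in WSB versus B6 (Penk and Pde10a), 3 in C3H versus B6 (Penk, Ppp1r1b and Adora2a) and 2 in WSB versus C3H (Penk and Ppp1r1b), against 7.36%, 6.44% and 6.74% of all genes set over Drd1. A gene that does not follow Drd1 takes on the spread of Drd1 when divided by it, which lowers these shares. They are thus no like measure for genes that follow Drd1, and the counts are a description only. With the GC trend removed there were 2 in each comparison, Penk and Ppp1r1b in WSB versus B6, Penk and Adora2a in C3H versus B6 and Penk and Ppp1r1b in WSB versus C3H, so that Pde10a per Drd1 then overlapped between WSB and B6. The share over all genes was not computed with the GC trend removed, so these counts have no background beside them.

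**Figure D4:**
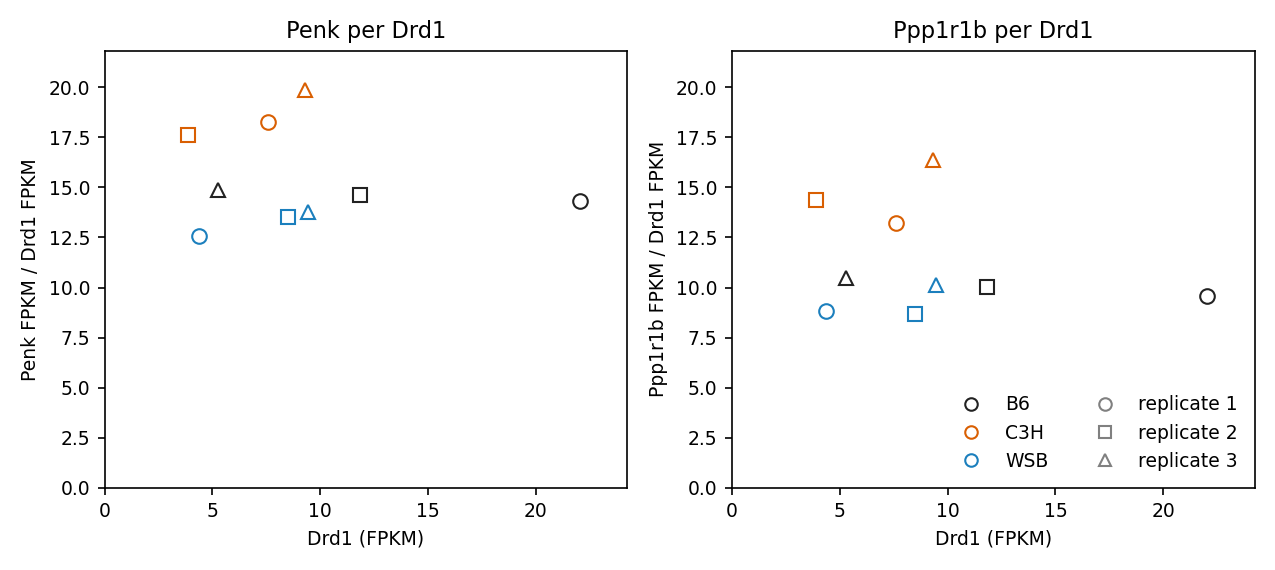
FPKM of Penk (left) and Ppp1r1b (right) divided by that of Drd1 in the same mouse, against the Drd1 level (FPKM); colours are strains and symbols are replicates. Penk per Drd1 was 12.6 to 13.8 in WSB, 14.3 to 14.9 in B6 and 17.6 to 19.8 in C3H.

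The genes most like the 9 in their deviations from strain means were looked for among 13001 genes averaging 1 FPKM or more, over the 9 mice. The first was Scn4b, a sodium channel subunit (r = 0.996, 12.2 to 92.3 FPKM), followed by Rasgrp2, Rasd2, Slc35d3, Adcy5, Kif17, Pde1b, Gng7, Sh3rf2, Cd4, Syndig1l, Krt10, Prima1, Tmem158 and Nup93 (r = 0.972). Of these 15, 8 were among the 24 other striatal genes listed, a list chosen with earlier results of these data known. By values not centred on the strain, the first 15 were Adcy5 (r = 0.992), Rasgrp2, Scn4b, Cd4, Lrrc10b, Rasd2, Rxrg, Ankrd63, Sh3rf2, Slc35d3, Tmem158, Kmt5c, Gng7, Syndig1l and Srgap1 (r = 0.952), and 10 genes were named by both. An r of at least 0.9 within strains was reached by 86 genes and an r of at most -0.9 by 42.

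Of the 24 other striatal genes, 21 had an r of at least 0.8 with the 9 genes within strains (median 0.946), against 2.12% of all genes. This list, like those below, was chosen with earlier results of these data known. The shares of all genes thus stand beside it as a description. None of the 24 passed in any comparison of strains in limma, against 4.64% to 5.90% of all genes. Over all genes an unadjusted p under 0.05 was reached by 20.4% in WSB versus B6, 24.1% in C3H versus B6 and 23.8% in WSB versus C3H. Of the 24 it was reached by 0, 1 and 0. The most abundant were Gng7, a G protein subunit, Pde1b, a phosphodiesterase, and Tmem158, with means of 66.3, 65.2 and 51.1 FPKM. Their log2 fold changes in WSB versus B6 were -0.41, -0.38 and -0.14. The summed level of the list went from 332 FPKM in WSB replicate 1 to 957 in B6 replicate 1, and it was lowest in each strain in the same mouse as the 9 genes. The median log2 fold change of the list was -0.39 in WSB versus B6, -0.28 in C3H versus B6 and -0.14 in WSB versus C3H.

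The wider dopamine and cyclic AMP pathway, 20 genes of G proteins, adenylyl cyclase, kinase and phosphatase subunits and phosphodiesterases, followed the 9 genes in part. An r of at least 0.8 was reached by 5 of the 20, against 2.12% of all genes: Adcy5, Pde1b, Gng7, Gnal and Gnb5, of which the first 4 are also in the list of striatal genes. The median r was 0.394, and the summed level varied 1.21-fold over the mice. Abundant genes weigh most in this sum, such as Prkar1b and Ppp3r1 with means of 276 and 258 FPKM. Adcy5 in the same list ran from 23.2 to 66.7 FPKM. Ppp1cc, a catalytic subunit of protein phosphatase 1, was lower in WSB than in C3H (log2 fold change -0.39, SE 0.07, limma adjusted p = 0.0277) and was the only one of the 20 to pass in any comparison. Over all genes 5.74% passed in WSB versus C3H. Among 10 genes that process the peptides or receive them, 1, the substance P receptor gene Tacr1, reached an r of 0.8 (0.840). The 2.12% was taken over genes averaging 1 FPKM or more, and Tacr1 averaged 0.87 FPKM. Of the 9 tested 0 passed in limma. An unadjusted p under 0.05 was reached by 1 (WSB versus B6), 3 (C3H versus B6) and 1 (WSB versus C3H). Over all genes the shares were 20.4%, 24.1% and 23.8%. The most abundant of the 10, the processing genes Cpe, Pcsk1n and Pcsk2, had means of 940.3, 469.7 and 49.1 FPKM and r of -0.875, 0.0821 and 0.418.

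Marker genes of other cell types and neighbouring regions were summed in each mouse beside the 9 genes. Over all genes, 5.90% passed in WSB versus B6, 4.64% in C3H versus B6 and 5.74% in WSB versus C3H. An unadjusted p under 0.05 was reached by 20.4%, 24.1% and 23.8%. These shares stand beside the counts of each list below. Markers of cholinergic neurons and their precursors, listed here as striatal interneurons, were low, with means of 0.40 (Lhx8) to 0.74 FPKM (Slc18a3). They followed the 9 genes in part. Whether their RNA came from the striatum was not tested. Some values lay under the 0.1 FPKM added before the log, such as Lhx8 at 0.019 FPKM in B6 replicate 3. An r of at least 0.8 was reached by 5 of 5 (Chat, Slc18a3, Slc5a7, Lhx8 and Nkx2-1), against 2.12% of genes averaging 1 FPKM or more, which the 5 did not. Their summed level was 5.83, 2.44 and 0.825 FPKM in B6 replicates 1, 2 and 3, 2.27, 0.788 and 3.42 FPKM in C3H and 0.446, 5.39 and 2.78 FPKM in WSB. The lowest mouse of each strain was again the one with the least of the 9 genes. The highest WSB mouse was replicate 2, however, whereas 8 of the 9 genes were highest in WSB replicate 3. In each comparison 0 of the 5 passed in limma and 0 had an unadjusted p under 0.05, and their part in the result was not tested.

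Markers of cortical excitatory neurons varied 1.43-fold, from 427 to 609 FPKM in sum, and 0 of 10 had an r of at least 0.8 with the 9 genes (median -0.465). Slc17a7, with a mean of 292 FPKM, weighs most in this sum. Cux2 was lower and Rorb higher in WSB than in C3H (log2 fold changes -0.40 and 0.66, limma adjusted p = 0.0458 and 0.0381). Hippocampal markers had a negative r for 7 of 7 (median -0.589, against -0.064 for genes averaging 1 FPKM or more), and their sum was lowest, 8.80 FPKM, in B6 replicate 1 and highest, 43.0 FPKM, in B6 replicate 3, the reverse of the order of the 9 genes in that strain. The most abundant were Fibcd1, C1ql2 and Spink8, and in each comparison 0 of the 7 passed in limma and 0 had an unadjusted p under 0.05. For the 7 oligodendrocyte markers r was positive throughout (median 0.727), against 44.8% of genes averaging 1 FPKM or more. Their summed levels were 434 to 624 FPKM in WSB, 745 to 1006 in C3H and 799 to 998 in B6, the WSB range lying below both others. In WSB versus B6, 7 of the 7 had an unadjusted p under 0.05 in limma and 1 passed, against 20.4% and 5.90% of all genes. Mobp was lower in WSB than in B6 (-0.77, limma adjusted p = 0.0402) and Mog lower in WSB than in C3H (-0.92, limma adjusted p = 0.0407).

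Thalamic markers summed to 18.8 to 71.4 FPKM and were highest in C3H replicate 3 (0 of 6 with r of at least 0.8, led by Ramp3, Slc17a6 and Prkcd). In limma 0 of the 6 passed. An unadjusted p under 0.05 was reached by 3 in WSB versus B6, 4 in C3H versus B6 and 0 in WSB versus C3H. Over all genes the shares were 20.4%, 24.1% and 23.8%. The fitted values of 0 of the 6 thalamic markers lay below B6 in WSB or in C3H. Their median log2 fold changes were 0.61 in WSB versus B6 and 0.78 in C3H versus B6. Choroid plexus markers summed to 65.3 to 766 FPKM, nearly all of it Ttr, and were highest in B6 replicate 2 (0 of 8 with r of at least 0.8, led by Ttr, Clic6 and Kl), and in each comparison 0 of the 8 passed in limma and 0 had an unadjusted p under 0.05. No microglial, astrocyte or blood marker reached an r of 0.8. Among them Csf1r was lower in WSB than in B6 (-0.38, limma adjusted p = 0.0154) and Gfap lower in WSB than in C3H (-0.70, limma adjusted p = 0.0141). All 4 blood genes (Alas2, Hba-a1, Hbb-bs and Hbb-bt) passed in at least 1 comparison. In WSB versus B6 2 of them passed, in C3H versus B6 3 and in WSB versus C3H 3. The shares of all genes were 5.90%, 4.64% and 5.74%. Among the 4 were Hbb-bt, lower in WSB than in B6 (-4.56, limma adjusted p = 0.00143) and Hba-a1, higher in C3H than in B6 (2.28, limma adjusted p = 0.000101). Hbb-bs was at 0.16 in WSB versus B6 (limma adjusted p = 0.495), and Hbb-bt ran from 2.20 to 69.3 FPKM within C3H. The part of these cell types and regions in the spread of the 9 genes was not tested.

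**Figure D5:**
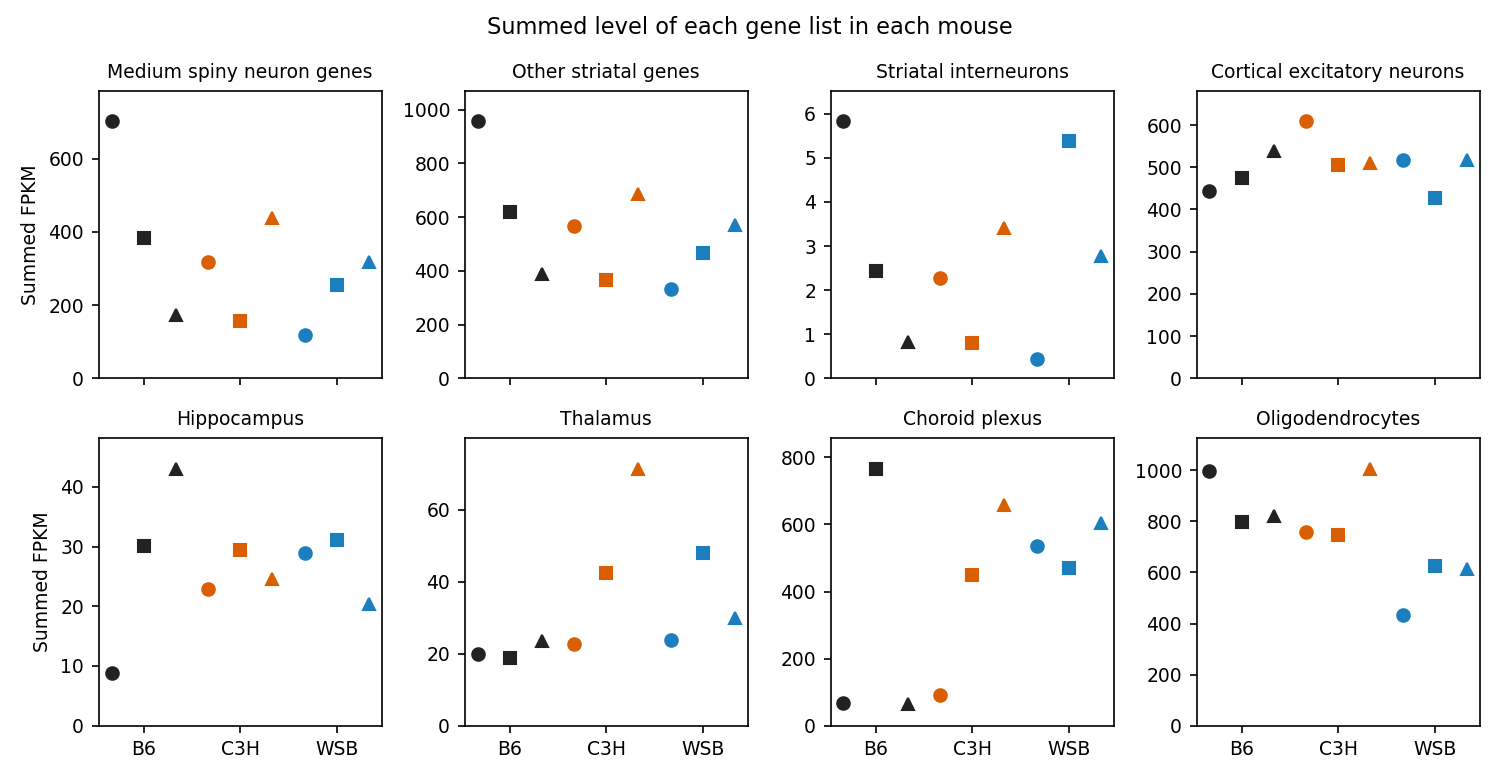
Summed FPKM of 8 gene lists in each of 9 mice (each axis starts at 0); colours are strains, and circles, squares and triangles are replicates 1, 2 and 3. The other striatal genes follow the 9 medium spiny neuron genes from mouse to mouse, while cortical excitatory markers, in a sum where Slc17a7 weighs most, stay between 427 and 609 FPKM.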

How the data were processed

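Brain cortex RNA of 9 mice was measured as FPKM per gene. The authors used Cutadapt to trim paired-end reads, HTSeq to count them per gene and DESeq2 to test strains, and per the labels STAR was also used. Versions and the strandedness of counting are not given in the sources used here. The deposited FPKM values, multiplied by gene length, were whole multiples of 1 step per library for 100% of values (tolerance 0.01 reads), which returned read counts. All 9 genes had the coordinates of GENCODE M21 (GRCm38), as did 53585 of 54532 identifiers. The paper states that the mouse reference assembly comes from B6. Whether strain variants changed the read counts of C3H and WSB was not tested.

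Pairs of strains were compared by limma (version 3.58.1, under R 4.3.3) with its moderated two-sided test and a trend of variance on level. The values were log2(FPKM + 0.1), so the fold change of a gene with a low level is understated. Genes averaging under 0.1 FPKM in the 6 mice were left out, and p-values were adjusted by Benjamini-Hochberg over every gene kept, at a threshold of 0.05. Likeness was Pearson's r with the mean of the 9 scaled profiles. The scripts were tested on simulated data. Alternatives were a pseudocount of 1 or 0.01, a filter at 1 FPKM or none, rescaling by medians of ratios, a joint fit of the 3 strains, a constant prior variance, voom weights, a replicate block, removal of a GC trend (lowess) and leaving out single mice. The rescaling divided all 9 mice by the same factor, 1.01, because the deposited FPKM already carried that scale. It could thus hardly change a comparison and is no separate check. The covariate fits were added after the data were seen.

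Genes named were the 9 genes, in each gene list the genes called (4 where more than 5 were) or, where none was, the 3 of highest mean, and the 15 most alike by each measure. The members and lists were chosen with earlier results of these data known. No protein sequence was used here.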

Additional observations from a re-analysis of the deposited data

How the results depend on the processing

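The count of the 9 genes that passed stayed at 0 in each comparison of strains under each alternative named with the processing, and the lowest limma adjusted p of any of them over those alternatives was 0.129 in WSB versus B6, 0.0842 in C3H versus B6 and 0.176 in WSB versus C3H. With the replicate block, 0 passed in each comparison, while the counts over all genes went from 1224 to 754, from 956 to 480 and from 1182 to 531. Same-numbered mice did not deviate together (r of -0.157 to 0.0370 over genes), and no pairing of the mice by number was seen. A small effect shared by same-numbered mice could be missed by this measure. Leaving out 1 mouse at a time, the counts over all genes were 651 to 825 in WSB versus B6, 498 to 2301 in C3H versus B6 and 475 to 2002 in WSB versus C3H. Both highest counts came without C3H replicate 2. With voom weights the count in C3H versus B6 was 1488. The cause was not tested. The covariate fit with all 3 strains, added later, gave 1 gene in C3H versus B6 (Drd1) and 1 in WSB versus C3H (Ppp1r1b). The relation of Ppp1r1b and Pde10a weakened to r = 0.704 (exact permutation p = 0.0804) without the 2 mice farthest from the median of Ppp1r1b; the construction leaves 7 mice.

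The signs of the differences rested on single mice. Of the 27 log2 fold changes, 17 turned sign when 1 mouse was left out, and 1 of 270 values under the other alternatives did so, Pde10a in WSB versus C3H at -0.0063 with the GC trend removed. Many of the 270 could not turn. The filters, the joint fit, the constant prior variance and the replicate block leave a fold change as it was. The rescaling leaves it nearly so. The count of 270 is therefore no measure of how stable the signs are. Leaving out 1 mouse at a time in WSB versus B6 gave ranges of -1.43 to 0.21 for Drd2 and -0.90 to 0.019 for Tac1. In C3H versus B6 the ranges were -0.96 to 0.049 for Penk, -0.74 to 0.23 for Ppp1r1b, -0.82 to 0.24 for Adora2a, -0.99 to 0.40 for Drd2, -0.72 to 0.26 for Tac1, -1.03 to 0.26 for Rgs9 and -1.02 to 0.044 for Gpr6. In WSB versus C3H they were -0.77 to 0.020 for Penk, -1.10 to 0.21 for Adora2a, -1.08 to 0.45 for Drd2, -0.71 to 0.21 for Tac1, -0.98 to 0.31 for Rgs9, -0.25 to 0.45 for Drd1, -0.24 to 0.28 for Pde10a and -0.66 to 0.32 for Gpr6. The fewest reads of any of the 9 genes in a mouse were 55, for Gpr6.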

Other observations

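Some genes ran against the 9 medium spiny neuron genes from mouse to mouse, and 3 of them are given here as values chosen after they were seen. Bhlhe22 and Lhx2 were picked as cortical factors. Spag5, Scrg1, Slc44a5, Kctd3, Dtwd1 and Ywhab had r nearer to -1 (-0.966 to -0.951). The fixed list of cortical excitatory markers ran against the 9 genes less closely, with a median r of -0.465 and Lamp5 at 0.288. Bhlhe22, which encodes a transcription factor of cortical neurons, was at 11.9, 20.4 and 23.1 FPKM in B6 replicates 1, 2 and 3, 18.5, 24.6 and 15.2 FPKM in C3H and 25.1, 17.2 and 16.4 FPKM in WSB, with an r of -0.949 within strains. Lhx2, which encodes a homeodomain factor of the developing cortex, was at 14.3, 18.5 and 22.3 FPKM in B6, 19.5, 20.97 and 17.7 FPKM in C3H and 19.4, 15.4 and 15.8 FPKM in WSB (r = -0.949). In each strain both genes were highest in the mouse with the least of the 9 genes. Cep68 had the r nearest to -1 (-0.993) but moved little, from 4.54 FPKM in WSB replicate 3 to 5.62 FPKM in B6 replicate 3.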
